A study of Homo sapiens with 6 samples.

Results

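LCN2 and 9 further genes of epithelial innate defense were examined in KYSE150 cells. The 10 genes are LCN2, SLPI, PI3, SAA1, SAA2, C3, CFB, NFKBIZ, IL17RA and TNIP1, out of 67140 gene identifiers in the count table. They comprise secreted defense proteins and the genes of the pathway that induces them, and they were chosen from their counts in shAC007128.1 against shCtrl, the same contrast described here. Their differences are therefore given as a description, with no p. Where one of them is said to be called, this says only that it passed the limits applied to all genes, and nothing rests on it. Of the 10 genes, 9 were among the 19254 that passed a filter on low counts, and PI3 was not.

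KYSE150 is an established human esophageal squamous cell carcinoma (ESCC) line. Poly-A RNA was sequenced from 3 samples of cells with a control hairpin (shCtrl) and 3 samples of cells with a hairpin against the lncRNA AC007128.1 (shAC007128.1). Cells of both groups were grown in RPMI 1640 with fetal bovine serum, and both carried a lentiviral hairpin and had been selected with puromycin. Each group rests on 1 hairpin sequence. The labels do not say whether the 3 samples of a group were separate cultures, so p-values measure the spread between these samples, which may be technical. Total counts were 55764405 to 78610457 per sample. Levels are in CPM, counts scaled to library size with edgeR's TMM factors, and are given as mean ± SD (n = 3). Genes were compared with edgeR's quasi-likelihood test, and calls needed both an adjusted p (Benjamini-Hochberg) no greater than 0.05 and a log2 fold change of 1 or more in either direction. Each log2 fold change is given with its standard error (SE).

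Epithelia defend themselves with secreted proteins that starve or kill microbes, block proteases and start complement. LCN2 (lipocalin 2) binds siderophores, the molecules with which bacteria take up iron. Many of these genes are known to be induced by IL-17 and IL-1 through NF-kappaB and I-kappaB-zeta, the NFKBIZ product, while A20-binding proteins such as the TNIP1 product restrain NF-kappaB.

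The level of AC007128.1 (ENSG00000229970), the hairpin's target, was low in every sample. Its counts were 69, 33 and 53 in shCtrl replicates 1, 2 and 3, and 18, 37 and 15 in shAC007128.1 replicates 1, 2 and 3. The groups overlapped. The means were 0.712 ± 0.273 CPM (SD, n = 3) and 0.417 ± 0.224 CPM (SD, n = 3), and the difference did not pass edgeR's test (log2 fold change -0.77, SE 0.51, adjusted p = 0.271). A two-sided exact permutation test gave p = 0.2 but could not go below 0.1 with 3 against 3 samples, so it bears on neither side. Other genes, ICA1 on the opposite strand among them, share 42.2% of the target's exon bases, and the use of strand in counting is not given in the sources used here, so part of these counts may belong to them. The log2 fold change was negative in every alternative fit, from -1.29 without shAC007128.1 replicate 2 to -0.51 without shCtrl replicate 1. These counts do not settle whether the target was lower. By qPCR, the study reported that the hairpin reduced AC007128.1 in ESCC cells.

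NF-kappaB and C/EBP factors are known to act at the promoters of many of these genes, so the promoters of the genes above that RefSeq (GRCh38.p14) gave are shown, from 250 bases before to 50 after the start of transcription. Capitals mark matches on either strand to an NF-kappaB motif (GGGA, any 4 bases, then CC) or a C/EBP motif (TTNNGNAA). The windows lie at chr9:128149203-128149502 (plus strand) for LCN2, chr6:31945845-31946144 (plus strand) for CFB, chr3:101827740-101828039 (plus strand) for NFKBIZ and chr5:151080985-151081284 (minus strand) for TNIP1.
LCN2: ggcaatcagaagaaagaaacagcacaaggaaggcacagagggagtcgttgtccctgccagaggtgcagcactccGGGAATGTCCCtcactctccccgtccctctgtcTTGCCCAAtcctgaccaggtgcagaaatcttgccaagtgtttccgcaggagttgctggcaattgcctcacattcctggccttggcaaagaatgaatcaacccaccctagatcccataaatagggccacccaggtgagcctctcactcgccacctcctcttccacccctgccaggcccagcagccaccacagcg
CFB: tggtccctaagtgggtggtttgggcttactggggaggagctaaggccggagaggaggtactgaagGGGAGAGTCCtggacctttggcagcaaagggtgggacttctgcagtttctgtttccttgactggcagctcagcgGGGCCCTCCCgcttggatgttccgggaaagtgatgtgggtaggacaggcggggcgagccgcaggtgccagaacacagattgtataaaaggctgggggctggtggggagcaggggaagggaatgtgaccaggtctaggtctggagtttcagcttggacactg
NFKBIZ: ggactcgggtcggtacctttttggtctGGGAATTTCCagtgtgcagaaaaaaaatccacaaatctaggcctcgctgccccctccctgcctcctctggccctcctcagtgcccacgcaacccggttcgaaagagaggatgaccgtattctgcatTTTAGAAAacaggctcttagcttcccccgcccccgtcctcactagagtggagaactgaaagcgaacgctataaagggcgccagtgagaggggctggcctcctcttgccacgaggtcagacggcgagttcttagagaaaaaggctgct
TNIP1: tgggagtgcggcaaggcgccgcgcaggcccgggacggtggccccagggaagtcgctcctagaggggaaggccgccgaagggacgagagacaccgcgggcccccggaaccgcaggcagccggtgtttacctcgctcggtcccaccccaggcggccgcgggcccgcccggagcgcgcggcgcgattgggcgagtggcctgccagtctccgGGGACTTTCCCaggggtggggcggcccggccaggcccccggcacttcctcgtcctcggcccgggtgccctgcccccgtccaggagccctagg

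The LCN2 window held GGGAATGTCC, its first base at -176 from the start site, with a match on the opposite strand overlapping it by all but 1 base, and a C/EBP match at -143. The CFB window held NF-kappaB matches at -185 and -111, the second on the opposite strand. The first NFKBIZ window held GGGAATTTCC at -223 and a C/EBP match at -97, and the TNIP1 window held GGGACTTTCC at -42 with an overlapping match on the opposite strand. RefSeq gave 6 windows for these 4 genes, counting a further start of NFKBIZ and of TNIP1. The NF-kappaB motif was found in 5 of the 6 windows and in 25.6% of all 35116 promoters of the same length. The C/EBP motif was found in 2 of the 6 and in 36.8% of all promoters. Matches are a description of the letters and not of binding. SLPI, PI3, SAA1, SAA2, C3 and IL17RA had no entry.

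LCN2 had the largest difference of the 9 tested. LCN2 (ENSG00000148346, chr9:128149071-128153453 on hg38, plus strand) was counted 3622, 4149 and 3265 times in shCtrl replicates 1, 2 and 3, and 326, 297 and 337 times in shAC007128.1 replicates 1, 2 and 3. Scaled for depth, these were 49.5, 51.6 and 48.1 CPM against 5.80, 5.41 and 5.80 CPM. Every shAC007128.1 sample lay far below every shCtrl sample, and within each group the samples lay close together. The mean went from 49.7 ± 1.74 CPM (SD, n = 3) to 5.67 ± 0.226 CPM (SD, n = 3), which is 11.4% of control (log2 fold change -3.13, SE 0.09). In bulk RNA, fewer cells that express a gene and less of its RNA per cell cannot be told apart.

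Other genes of siderophore and iron handling mostly did not pass the call. SLC22A17, a receptor for LCN2, had 8, 0 and 9 counts in shCtrl and none in shAC007128.1, too few to test. MMP9, the gelatinase that LCN2 binds covalently, had 54, 5 and 25 counts in shCtrl and 13, 5 and 4 in shAC007128.1, and the groups overlapped, with 18.4% of its exon bases shared with an antisense gene (log2 fold change -1.56, SE 0.92, edgeR adjusted p = 0.22). TFRC, the transferrin receptor for iron uptake, rose from 143 ± 2.58 to 577 ± 43.6 CPM (SD, n = 3; log2 fold change 2.01, SE 0.07, edgeR adjusted p = 1.6e-05). LTF, the iron-binding antimicrobial protein lactotransferrin, fell from 6.04 ± 0.0609 to 1.33 ± 0.493 CPM (SD, n = 3; log2 fold change -2.18, SE 0.30, edgeR adjusted p = 0.00115). TFRC and LTF were the only genes called among the 18 tested of a list of 27 on siderophores and iron. That is 5.56% in each direction, beside 10.1% of all genes tested called lower and 5.57% called higher. The median log2 fold change was 0.02 beside -0.02 for all genes tested. With no limit on fold change, 3 were called lower and 4 higher. The count called higher was 3 without shCtrl replicate 2 and 2 without shAC007128.1 replicate 1.

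SLPI and PI3 are genes of the whey acidic protein cluster on chromosome 20 and encode secreted inhibitors of neutrophil elastase (the SLPI product also inhibits cathepsin G). SLPI (ENSG00000124107, chr20:45252239-45254564, minus strand) stood at 17.4, 20.4 and 15.9 CPM in shCtrl replicates 1, 2 and 3 and at 5.16, 4.82 and 4.71 CPM in shAC007128.1 replicates 1, 2 and 3. The groups were well apart. The mean of 4.90 ± 0.232 CPM (SD, n = 3) was 27.3% of the control mean of 17.9 ± 2.27 CPM (SD, n = 3; log2 fold change -1.87, SE 0.14). PI3, which encodes elafin (ENSG00000124102, chr20:45174902-45176544, plus strand), had 0, 22 and 13 counts in shCtrl and 8, 5 and 0 in shAC007128.1. Each group held a sample with no count, the groups overlapped, and no fold was computed. At these depths 3 counts, taken as the limit that a count of 0 allows, correspond to 0.0382 to 0.0538 CPM, which covers counting error only.

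Related protease inhibitors and epithelial proteases, kallikreins among them, were called in both directions. The list also held transglutaminase genes, such as TGM2. Of 44 genes listed, 23 were tested, 2 were called lower (8.7%) and 4 higher (17.4%), beside 10.1% and 5.57% of all genes tested. The median log2 fold change was -0.02. The count called lower was 1 without any single shCtrl sample and 0 without shAC007128.1 replicate 3. KLK5, a trypsin-like kallikrein of stratified epithelia, rose from 42.5 ± 2.83 to 113 ± 16.5 CPM (SD, n = 3; log2 fold change 1.41, SE 0.12, edgeR adjusted p = 0.000179), and a gene on the opposite strand shares 12.2% of its exon bases. PRSS22, an epithelial serine protease, rose from 18.3 ± 0.719 to 43.9 ± 10.6 CPM (SD, n = 3; log2 fold change 1.26, SE 0.18, edgeR adjusted p = 0.00143). SPINK6, an inhibitor of kallikreins, was counted 0, 8 and 3 times in shCtrl and 38, 63 and 35 times in shAC007128.1, with no overlap (log2 fold change 4.0, SE 0.85, edgeR adjusted p = 0.00837). WFDC3, of the same protein family as SLPI, rose from 0.586 ± 0.134 to 1.59 ± 0.655 CPM (SD, n = 3; log2 fold change 1.44, SE 0.38, edgeR adjusted p = 0.0209), and this call was lost without shCtrl replicate 1 (adjusted p = 0.0576), shCtrl replicate 2 (0.0742) or shAC007128.1 replicate 2 (0.0674). SERPINA1, which encodes alpha-1 antitrypsin, fell from 4.06 ± 0.461 to 1.88 ± 0.387 CPM (SD, n = 3; log2 fold change -1.11, SE 0.22, edgeR adjusted p = 0.00559), though without shAC007128.1 replicate 3 its log2 fold change of -0.99 was under the limit. SERPINB3, a serpin of squamous epithelium, had 52, 58 and 40 counts in shCtrl and 0, 9 and 0 in shAC007128.1, with 36.3% of its exon bases shared with SERPINB11 on the opposite strand (log2 fold change -3.60, SE 1.09, edgeR adjusted p = 0.0334). That call was kept only without shAC007128.1 replicate 2 when single samples were left out, with adjusted p from 0.0625 to 0.0928 in the other 5 such fits. TGM2, a transglutaminase that can cross-link elafin, stood at 391 ± 7.68 CPM in shCtrl and 605 ± 56.8 CPM in shAC007128.1 (SD, n = 3; log2 fold change 0.63, SE 0.08), under the limit for a call. WFDC2 had counts in 1 sample of each group and was not tested.

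SAA1 and SAA2 encode the acute phase serum amyloid A proteins, lipid-binding proteins that epithelial cells as well as liver release in inflammation. Their coding sequences, 369 bases each in GENCODE v44, differed at 11 positions (97.0% identity). Coding bases 174 to 323, counted from the start codon, are shown, with differences in capitals. This stretch was picked as the 150 bases with the most differences, 10 of the 11, so it is where the genes are least alike.
SAA1: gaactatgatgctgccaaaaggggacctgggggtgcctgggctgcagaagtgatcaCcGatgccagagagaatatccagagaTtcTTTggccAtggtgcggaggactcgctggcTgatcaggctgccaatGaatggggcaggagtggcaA
SAA2: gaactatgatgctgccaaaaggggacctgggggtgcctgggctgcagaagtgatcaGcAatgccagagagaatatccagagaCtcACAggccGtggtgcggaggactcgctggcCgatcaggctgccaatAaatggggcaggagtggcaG

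Of the windows of 50 bases in their annotated transcripts, 34.2% of those of SAA1 and 17.8% of those of SAA2 occur in both genes, and how reads with more than 1 match were counted is not given in the sources used here. The split between them is therefore uncertain. SAA1 (ENSG00000173432, chr11:18266260-18269977, plus strand) was at 16.8, 15.5 and 15.9 CPM in shCtrl replicates 1, 2 and 3 and at 6.94, 5.57 and 2.37 CPM in shAC007128.1 replicates 1, 2 and 3. The shAC007128.1 samples were all below the shCtrl samples but spread widely, replicate 3 being the lowest. The mean was 16.1 ± 0.684 CPM (SD, n = 3) against 4.96 ± 2.34 CPM (SD, n = 3), 30.8% of control (log2 fold change -1.70, SE 0.35), and the log2 fold change was -1.37 without shAC007128.1 replicate 3 and -2.02 without replicate 1. SAA2 (ENSG00000134339, chr11:18239223-18248668, minus strand) was at 4.65, 5.37 and 3.66 CPM in shCtrl and at 1.48, 2.13 and 1.45 CPM in shAC007128.1. These groups did not overlap either, with means of 4.56 ± 0.861 and 1.68 ± 0.387 CPM (SD, n = 3), 36.9% of control (log2 fold change -1.44, SE 0.24). With the counts of both genes summed, which does not depend on the split, the level was 20.6 ± 0.951 CPM in shCtrl and 6.64 ± 2.47 CPM in shAC007128.1 (SD, n = 3; log2 fold change -1.64, SE 0.28). SAA4, the constitutive member of the family, had at most 8 counts in a sample and was not tested.

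Other genes of an acute phase list were few at this level. The list also held receptors and other genes, such as SCARB1 and F3. Of 30 listed, 9 were tested, 3 were called lower (33.3%) and 0 higher, beside 10.1% and 5.57% of all genes tested. The count called lower was 2 without shCtrl replicate 1 or shAC007128.1 replicate 3. The count called higher was 1 without shCtrl replicate 2. The median log2 fold change was -0.69. F3, which encodes tissue factor, fell from 628 ± 2.78 to 252 ± 16.1 CPM (SD, n = 3; log2 fold change -1.32, SE 0.07, edgeR adjusted p = 2.95e-05). SCARB1, a lipoprotein receptor that also binds serum amyloid A, fell from 64.8 ± 2.79 to 32.4 ± 1.98 CPM (SD, n = 3; log2 fold change -1.0, SE 0.09, edgeR adjusted p = 0.000158). It lay at the limit, with a log2 fold change of -0.98 without shCtrl replicate 1 and of -0.97 without shAC007128.1 replicate 3. The third was SERPINA1. Of 8 hepatocyte markers, SERPINA1 alone was detected in every sample and APOH and TTR were at 0 in every sample. Their sum was 3.70 to 4.94 CPM in shCtrl and 2.03 to 3.22 CPM in shAC007128.1.

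**Figure D1:**
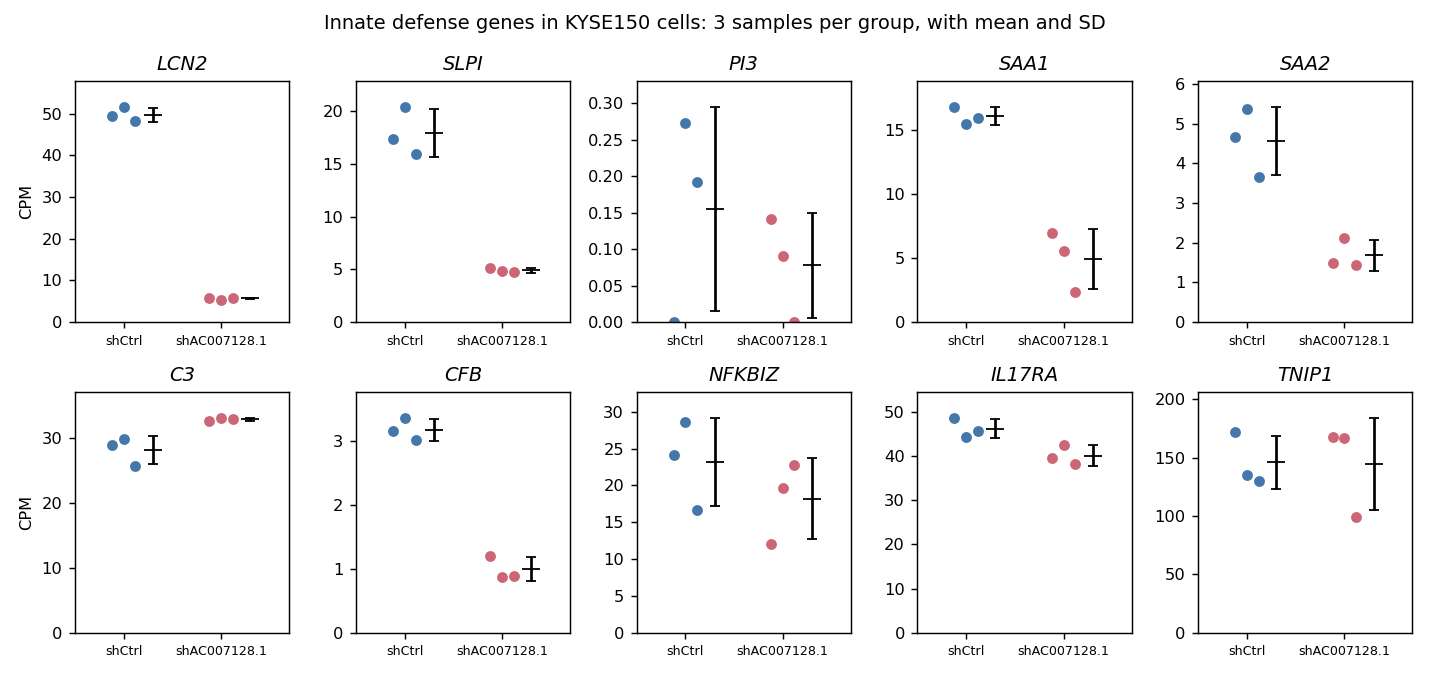
Levels of the 10 genes in CPM (vertical axes, each from 0) in the 3 shCtrl and 3 shAC007128.1 samples, with points for samples and bars for the mean and SD. LCN2, SLPI, SAA1, SAA2, CFB and IL17RA were lower in every shAC007128.1 sample than in any shCtrl sample, C3 was higher in every one, and PI3, NFKBIZ and TNIP1 overlapped.

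C3 and CFB are the central component and the serine protease of the alternative pathway of complement, and they differed in direction. C3 (ENSG00000125730, chr19:6677704-6730562, minus strand) stood at 28.8, 29.8 and 25.7 CPM in shCtrl replicates 1, 2 and 3 and at 32.5, 33.0 and 32.8 CPM in shAC007128.1 replicates 1, 2 and 3. The shAC007128.1 samples were all higher, by a small margin. The means were 28.1 ± 2.12 and 32.8 ± 0.28 CPM (SD, n = 3; log2 fold change 0.22, SE 0.09), and C3 was not called. CFB (ENSG00000243649, chr6:31945650-31952086, plus strand) stood at 3.16, 3.37 and 3.02 CPM in shCtrl and at 1.21, 0.874 and 0.895 CPM in shAC007128.1. Here the shAC007128.1 samples were all lower, with means of 3.18 ± 0.175 and 0.993 ± 0.188 CPM (SD, n = 3), 31.2% of control (log2 fold change -1.68, SE 0.21). CFB shares 42.8% of its annotated exon bases with the upstream gene C2 and with a read-through gene (ENSG00000244255) that joins both. The read-through gene went the other way, from 0.0273 ± 0.0473 to 0.547 ± 0.123 CPM (SD, n = 3; log2 fold change 4.24, SE 1.09, edgeR adjusted p = 0.0178), and was named after its values were seen. With the counts of all 3 genes summed, the level was 5.54 ± 0.404 CPM in shCtrl and 2.45 ± 0.314 CPM in shAC007128.1 (SD, n = 3; log2 fold change -1.18, SE 0.17).

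Of 49 other complement genes listed, 24 were tested, 7 were called lower (29.2%) and 2 higher (8.33%). Among all genes tested these shares were 10.1% and 5.57%. The median log2 fold change was -0.15. The 7 lower calls count C4A and C4B separately. The count called lower was 5 without shCtrl replicate 3. It was 6 when another shCtrl sample, or shAC007128.1 replicate 3, was left out. The count called higher was 1 without shCtrl replicate 3 or shAC007128.1 replicate 3. Another 15 were not called. Among them, named after their values were seen, were C1R (log2 fold change -0.38, SE 0.21), C1S (0.51, SE 0.19) and CLU (0.43, SE 0.07). Several components fell. C5, the source of the anaphylatoxin C5a and the start of the membrane attack complex, fell from 3.71 ± 0.41 to 0.556 ± 0.211 CPM (SD, n = 3; log2 fold change -2.74, SE 0.32, edgeR adjusted p = 0.000603). CFD, the protease that cleaves factor B, fell from 2.20 ± 0.372 to 0.805 ± 0.138 CPM (SD, n = 3; log2 fold change -1.45, SE 0.25, edgeR adjusted p = 0.00341), and MED16 on the opposite strand shares 14% of its exon bases. C2, the classical pathway counterpart of CFB, fell from 2.33 ± 0.247 to 0.909 ± 0.163 CPM (SD, n = 3; log2 fold change -1.35, SE 0.23, edgeR adjusted p = 0.00317), subject to the bases shared with CFB. C4A and C4B share 93.9% and 93.1% of their windows of 50 bases and cannot be told apart by most reads, and their summed counts gave 3.69 ± 0.314 and 1.46 ± 0.404 CPM (SD, n = 3; log2 fold change -1.34, SE 0.25). ITGAX, a subunit of complement receptor 4 known from myeloid cells, fell from 3.59 ± 0.337 to 0.444 ± 0.208 CPM (SD, n = 3; log2 fold change -3.01, SE 0.37, edgeR adjusted p = 0.000763).

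CD59, CD46, CD55 and CFI restrain complement, and none of them was called. CD59, which blocks the membrane attack complex, went from 95.9 ± 14.0 to 188 ± 26.1 CPM (SD, n = 3; log2 fold change 0.97, SE 0.14), under the limit, and passed it without shCtrl replicate 2 (1.09) or shAC007128.1 replicate 2 (1.05). The convertase inhibitors CD46 and CD55 had log2 fold changes of 0.54 (SE 0.12) and -0.68 (SE 0.10), so they differed in direction. CFI, the protease that inactivates C3b, had 89, 94 and 83 counts in shCtrl and 18, 93 and 120 in shAC007128.1, with shAC007128.1 replicate 1 standing below the rest and 29.4% of its exon bases shared with another gene (log2 fold change 0.18, SE 0.57). Among the genes called higher was MASP2, a protease of the lectin pathway (log2 fold change 1.72, SE 0.57, edgeR adjusted p = 0.047). It lost the call without shCtrl replicate 2 (adjusted p = 0.129), shCtrl replicate 3 (0.114), shAC007128.1 replicate 2 (0.147) or shAC007128.1 replicate 3 (0.0904).

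**Figure D2:**
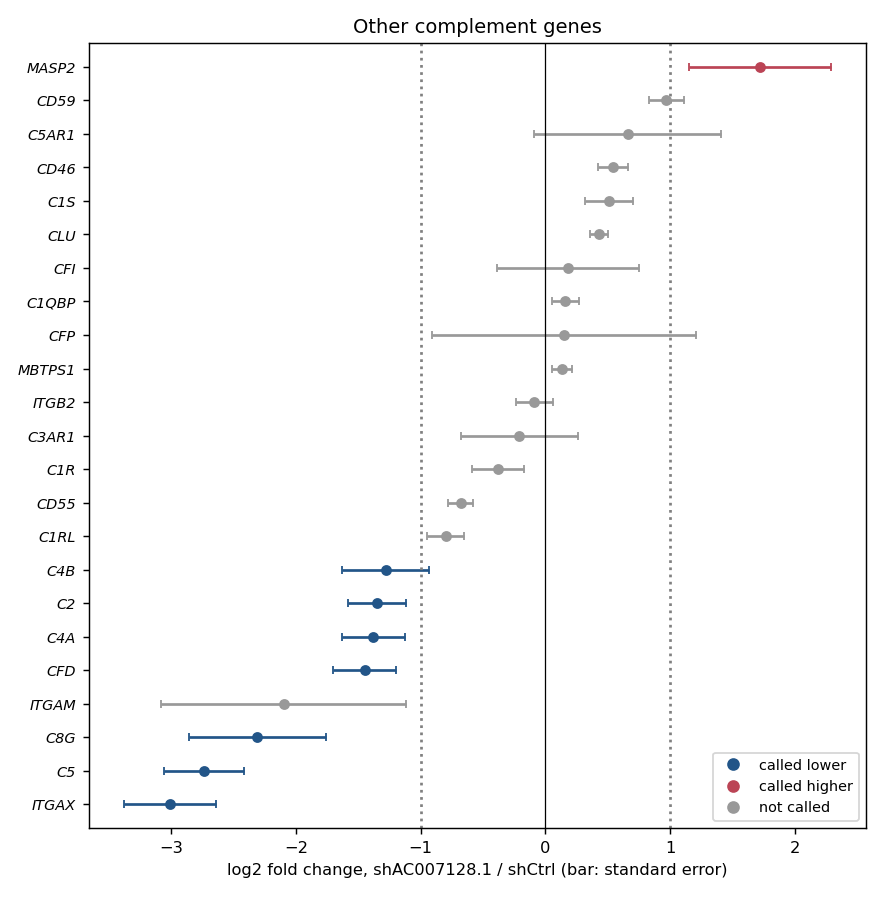
Log2 fold change of shAC007128.1 over shCtrl (horizontal axis; bars are SE) for other complement genes tested, with dotted lines at the limits of the call. C5 (-2.74) and CFD (-1.45) are called lower, MASP2 (1.72) is called higher, and CD55 (-0.68) and CD46 (0.54) lie between the lines.

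The 3 genes upstream, an inducer, a receptor and an inhibitor, were not called. NFKBIZ (ENSG00000144802, chr3:101827991-101861022, plus strand), the co-activator needed for full induction of LCN2, was at 24.1, 28.6 and 16.7 CPM in shCtrl replicates 1, 2 and 3 and at 12, 19.7 and 22.8 CPM in shAC007128.1 replicates 1, 2 and 3. The groups overlapped, and both spread widely. The means were 23.2 ± 6.02 and 18.2 ± 5.53 CPM (SD, n = 3; log2 fold change -0.35, SE 0.27). IL17RA (ENSG00000177663, chr22:17084954-17115693, plus strand), the receptor chain shared by several IL-17 cytokines, was at 48.7, 44.4 and 45.7 CPM in shCtrl and at 39.5, 42.6 and 38.1 CPM in shAC007128.1. The shAC007128.1 samples were all lower by a small margin, with means of 46.2 ± 2.2 and 40.1 ± 2.32 CPM (SD, n = 3), 86.7% of control (log2 fold change -0.21, SE 0.09). TNIP1 (ENSG00000145901, chr5:151029945-151093577, minus strand) was at 172, 135 and 130 CPM in shCtrl and at 168, 167 and 99.1 CPM in shAC007128.1. Its groups overlapped, since shAC007128.1 replicates 1 and 2 were among the high samples and replicate 3 was the lowest of all. The means were 146 ± 22.9 and 145 ± 39.5 CPM (SD, n = 3; log2 fold change -0.01, SE 0.21).

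Per kilobase of annotated exon, the order of the levels in shCtrl was LCN2 at 31.2 ± 1.09 CPM per kb, SLPI at 30.1 ± 3.82 and TNIP1 at 25.1 ± 3.96, followed by SAA1 at 15.1 ± 0.644 (SD, n = 3 for each). On this scale the SD ranges of LCN2 and SLPI overlapped, as did those of SLPI and TNIP1. IL17RA, NFKBIZ, C3 and SAA2 lay between 4.98 ± 0.237 and 2.03 ± 0.384 CPM per kb, with CFB at 0.599 ± 0.033 and PI3 at 0.281 ± 0.255 below them. C3 (2.43 ± 0.183) and SAA2 overlapped within 1 SD. In shAC007128.1 the order changed, with TNIP1 first at 25.0 ± 6.82 CPM per kb and SLPI next at 8.22 ± 0.389. SAA1 at 4.67 ± 2.21, IL17RA at 4.31 ± 0.249, LCN2 at 3.55 ± 0.142 and NFKBIZ at 3.08 ± 0.937 CPM per kb then lay close together, and the wide spreads of SAA1 and NFKBIZ covered LCN2.

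Counted together, 5 of the 9 genes tested were called lower (LCN2, SLPI, SAA1, SAA2 and CFB) and 0 higher, beside 10.1% of all genes tested called lower and 5.57% called higher. The groups did not overlap, with shAC007128.1 lower, for 6 of the 9, beside 28.2% of all genes tested, and with shAC007128.1 higher for 1 of the 9 (C3), beside 27.0%. The genes were chosen on this contrast, so nothing is read from these counts. SAA2, at a log2 fold change of -1.44, was the nearest called gene to the limit of 1, and NFKBIZ, at -0.35, was the nearest on the other side.

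**Figure D3:**
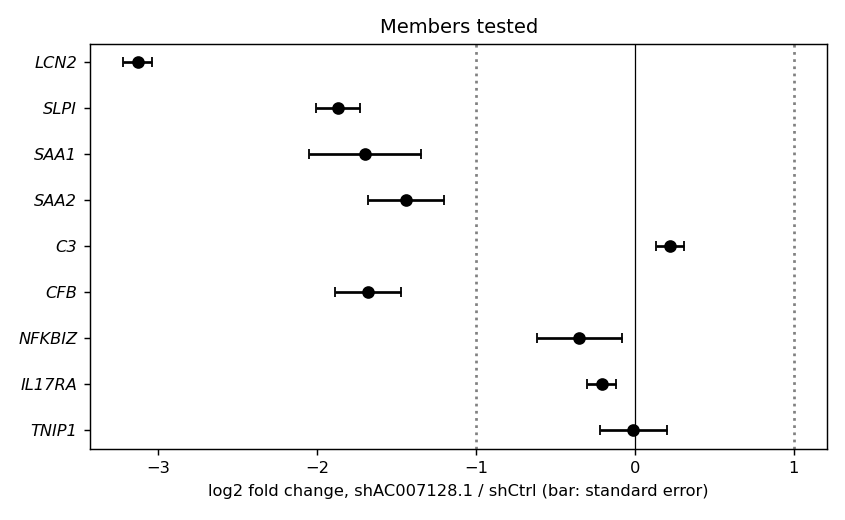
Log2 fold change of shAC007128.1 over shCtrl (horizontal axis; bars are SE) for the 9 genes tested, with dotted lines at the limits of the call. LCN2 (-3.13), SLPI, SAA1, SAA2 and CFB lie beyond -1, while C3 (0.22), NFKBIZ, IL17RA and TNIP1 (-0.01) lie between the lines.

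The machinery between IL-17 receptor and NF-kappaB was mostly not called. Of 39 other genes of IL-17 receptor signaling, 34 were tested, 4 were called lower (11.8%) and 0 higher, beside 10.1% and 5.57% of all genes tested. The median log2 fold change was 0.06. Without shCtrl replicate 1 there was 1 called higher, and without shAC007128.1 replicate 2 there were 2. With no limit on fold change, 12 were called higher and 8 lower. The ligands IL17A and IL17F had no count in any sample, and IL17C, an epithelial ligand, had 5, 9 and 12 counts in shCtrl and none in shAC007128.1. IL17RC, the partner chain of IL17RA, which shares 46.5% of its exon bases with another gene, stood at 19.1 ± 1.11 and 20.0 ± 3.05 CPM (SD, n = 3; log2 fold change 0.06, SE 0.14), and TRAF3IP2, the adaptor Act1, at 67.9 ± 3.67 and 77.1 ± 1.49 CPM (SD, n = 3; log2 fold change 0.18, SE 0.08). Neither was called. IL17RD, another receptor chain, had a log2 fold change of -0.55 (SE 0.15), under the limit. CEBPB, a transcription factor of acute phase and IL-17 target genes, fell from 375 ± 7.28 to 85.7 ± 11.8 CPM (SD, n = 3; log2 fold change -2.13, SE 0.11, edgeR adjusted p = 2.96e-05). An antisense gene shares 12.6% of its exon bases, and the use of strand in counting is not given in the sources used here. CEBPD, its relative, named after its values were seen, stood at 37.8 ± 3.06 and 55.4 ± 7.94 CPM (SD, n = 3; log2 fold change 0.55, SE 0.13), not called. TRAF1, a signaling adaptor, fell from 32.2 ± 2.65 to 7.73 ± 1.33 CPM (SD, n = 3; log2 fold change -2.06, SE 0.15, edgeR adjusted p = 9.62e-05). IL17D, a ligand of the family, fell as well (log2 fold change -1.59, SE 0.34, edgeR adjusted p = 0.00842), and 36.3% of its exon bases are shared with another gene. TRAF3, an inhibitor of IL-17 receptor signaling, was called lower (log2 fold change -1.14, SE 0.34, edgeR adjusted p = 0.0324), but shCtrl replicate 3 stood high and without it the log2 fold change was -0.63. The TRAF3 call was also lost without shAC007128.1 replicate 1 (adjusted p = 0.0987), replicate 2 (0.0557) or replicate 3 (0.0902).

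Of 34 NF-kappaB subunits, inhibitors and ubiquitin regulators, 33 were tested, 3 were called lower (9.09%) and 0 higher, beside 10.1% and 5.57% of all genes tested. The median log2 fold change was -0.03. The subunit genes NFKB1 and RELA had log2 fold changes of -0.06 (SE 0.10) and -0.25 (SE 0.07) and were not called, while RELB, the subunit of the alternative pathway, fell from 33.6 ± 1.49 to 15 ± 2.87 CPM (SD, n = 3; log2 fold change -1.17, SE 0.15, edgeR adjusted p = 0.000973). RNF11, part of the A20 ubiquitin-editing complex, fell from 111 ± 0.796 to 39.3 ± 3.91 CPM (SD, n = 3; log2 fold change -1.5, SE 0.09, edgeR adjusted p = 4.9e-05). RBCK1, a subunit of the linear ubiquitin ligase, fell from 111 ± 2.36 to 45.6 ± 5.23 CPM (SD, n = 3; log2 fold change -1.28, SE 0.10, edgeR adjusted p = 0.000109). TNFAIP3, which encodes A20, the partner of the TNIP1 product, stood at 63.3 ± 2.0 CPM in shCtrl and 37.7 ± 1.04 CPM in shAC007128.1 (SD, n = 3; log2 fold change -0.75, SE 0.08), with no overlap but under the limit. NFKBIA, the inhibitor that NF-kappaB itself induces, and TNIP2, a relative of TNIP1, had log2 fold changes of 0.41 (SE 0.14) and 0.30 (SE 0.17) and overlapping groups.

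Genes known to be induced by IL-17 or I-kappaB-zeta in epithelia were called in both directions. Of 39 such genes with counts given, 27 were tested, 6 were called lower (22.2%) and 2 higher (7.41%), beside 10.1% and 5.57% of all genes tested. The median log2 fold change was -0.44. Lower calls numbered 5 without any single shCtrl sample or without shAC007128.1 replicate 3. Higher calls numbered 3 without shAC007128.1 replicate 2. SERPINB3, described above, is among the genes called lower and lost its call in most fits that left out a single sample. IL1B, the cytokine interleukin-1 beta, fell from 209 ± 2.13 to 34.0 ± 1.9 CPM (SD, n = 3; log2 fold change -2.62, SE 0.07, edgeR adjusted p = 8.39e-06). IL6, the main inducer of the liver's acute phase proteins, fell from 28.7 ± 0.821 to 4.62 ± 0.238 CPM (SD, n = 3; log2 fold change -2.64, SE 0.11, edgeR adjusted p = 1.6e-05). CXCL2, a chemokine for neutrophils, fell from 33.6 ± 1.87 to 5.08 ± 1.2 CPM (SD, n = 3; log2 fold change -2.73, SE 0.18, edgeR adjusted p = 6.45e-05). IL24, an IL-10 family cytokine, fell as well (log2 fold change -2.11, SE 0.28, edgeR adjusted p = 0.000986), and 41.6% of its exon bases are shared with another gene. Not every neutrophil chemokine fell, since CXCL8, named after its values were seen, stood at 10.2 ± 0.299 CPM in shCtrl and 16.6 ± 2.99 CPM in shAC007128.1 (SD, n = 3; log2 fold change 0.70, SE 0.15). The genes called higher were collagenases. MMP13 rose from 0.701 ± 0.109 to 5.07 ± 0.284 CPM (SD, n = 3; log2 fold change 2.85, SE 0.20, edgeR adjusted p = 7.72e-05), and MMP1 rose with a log2 fold change of 1.21 (SE 0.24, edgeR adjusted p = 0.00649).

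**Figure D4:**
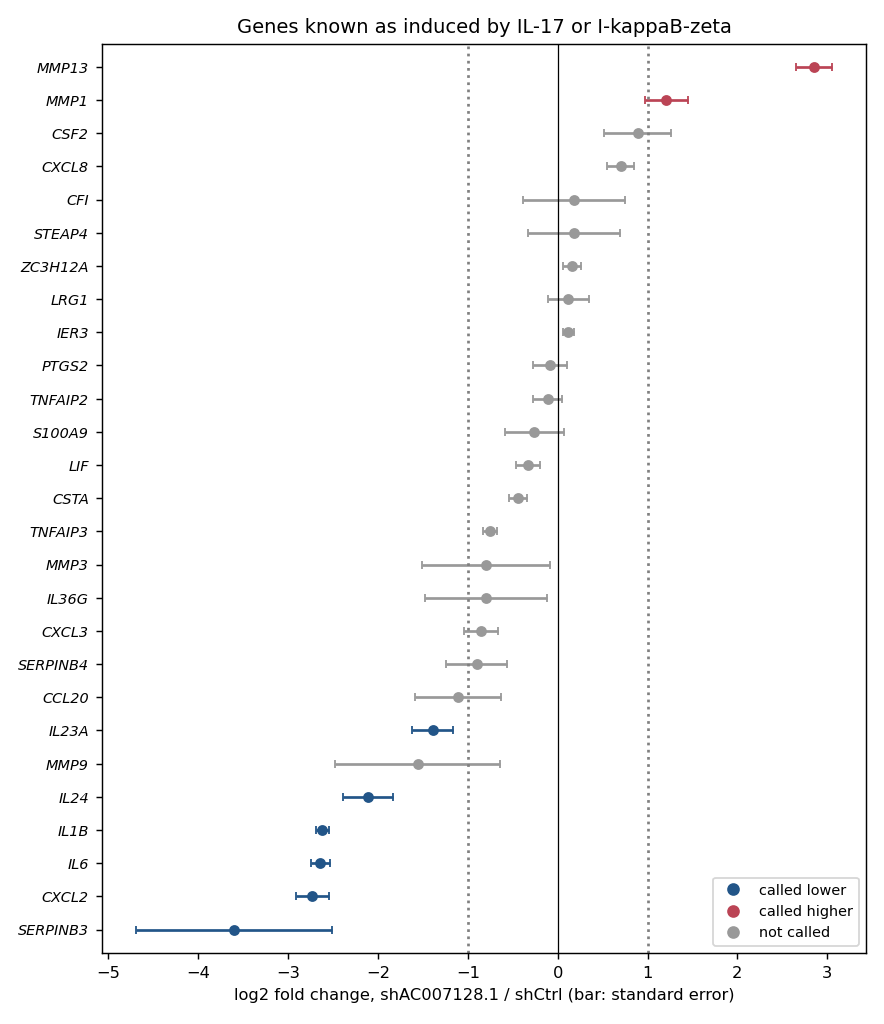
Log2 fold change of shAC007128.1 over shCtrl (horizontal axis; bars are SE) for the 27 tested genes known to be induced by IL-17 or I-kappaB-zeta, with dotted lines at the limits of the call. IL1B (-2.62), IL6 (-2.64) and CXCL2 (-2.73) are among the genes called lower, and MMP13 (2.85) and MMP1 (1.21) are the genes called higher.

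Other antimicrobial proteins of epithelia were sparse in KYSE150. The list also held membrane mucin genes, such as MUC1. Of the 43 matched by symbol, 17 had no count in any sample and 13 were tested. Among the 17 were DEFB4A and DEFB4B, near-identical genes whose lack of counts is uncertain. How reads with more than 1 match were counted is not given in the sources used here. Of these, 5 were called lower (38.5%) and 1 higher (7.69%), beside 10.1% and 5.57% of all genes tested. The median log2 fold change was -0.38. Lower calls numbered 4 without shCtrl replicate 1. MUC4, a membrane mucin, fell from 3.32 ± 0.493 to 0.136 ± 0.0435 CPM (SD, n = 3; log2 fold change -4.59, SE 0.31, edgeR adjusted p = 6.59e-05). RNASE7, an antimicrobial ribonuclease of skin and mucosa, fell from 3.31 ± 1.01 to 1.11 ± 0.425 CPM (SD, n = 3; log2 fold change -1.58, SE 0.34, edgeR adjusted p = 0.00903). DMBT1, a secreted receptor that binds bacteria, fell from 1.66 ± 0.359 to 0.591 ± 0.0542 CPM (SD, n = 3; log2 fold change -1.49, SE 0.26, edgeR adjusted p = 0.00383). LTF was described above. The gene called higher was MUC16, another membrane mucin, which rose from 20.5 ± 1.09 to 64.1 ± 9.35 CPM (SD, n = 3; log2 fold change 1.65, SE 0.12, edgeR adjusted p = 9.33e-05).

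**Figure D5:**
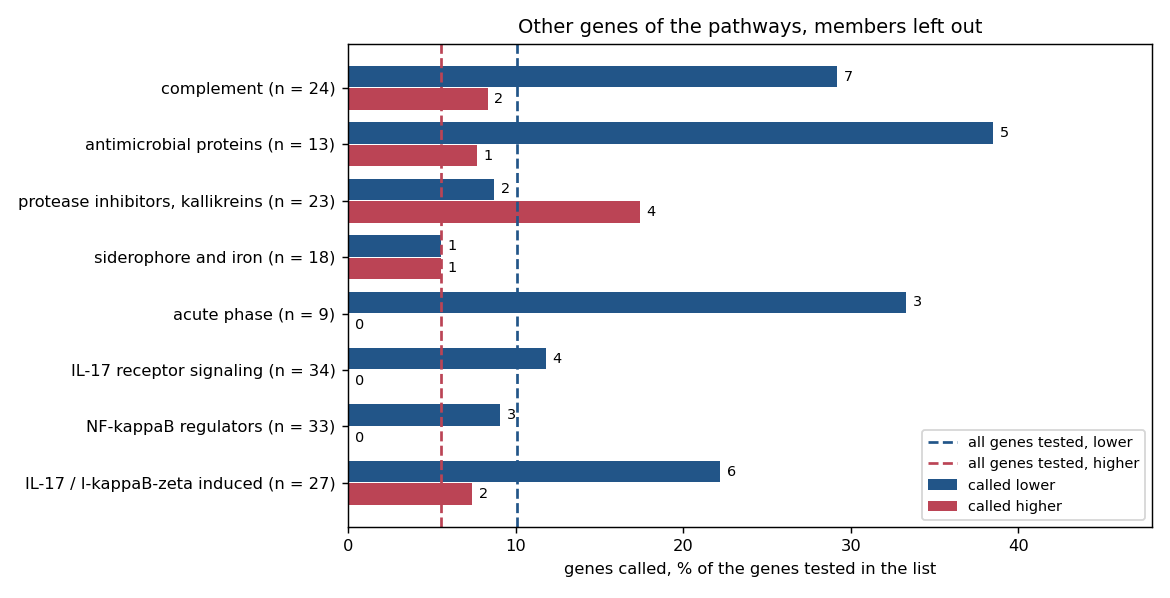
Share of the genes tested in each of 8 lists that were called lower or higher (horizontal axis, %; numbers beside the bars are gene counts), without the 10 genes themselves, with dashed lines at the shares for all genes tested (10.1% lower and 5.57% higher). Antimicrobial (38.5%), acute phase (33.3%), complement (29.2%) and induced genes (22.2%) lie above the line for lower calls, and the protease inhibitor list has more higher calls (17.4%) than lower ones (8.7%). The acute phase list also holds receptors and other genes, the antimicrobial list also holds membrane mucins, and the complement list counts C4A and C4B separately.

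Over the 8 lists together, 168 of the 283 genes matched by symbol were tested. Of these, 28 were called lower (16.7%) and 10 higher (5.95%), beside 10.1% and 5.57% of all genes tested. The median log2 fold change was -0.04. All lists were written with earlier results of these data known, so the shares are a description.

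Cell identity markers were read beside these results. All 10 squamous markers were detected in every sample, and their summed level was 1910 to 1980 CPM in shCtrl and 2730 to 3280 CPM in shAC007128.1. They did not move 1 way. The keratin genes KRT14 and KRT6A rose (log2 fold changes 2.28 and 2.46, edgeR adjusted p = 1.89e-05 and 1.73e-05), as did the transcription factor gene SOX2 (3.40, adjusted p = 0.000146), while DSG3, a desmosomal cadherin, fell from 203 ± 5.76 to 95.3 ± 9.19 CPM (SD, n = 3; log2 fold change -1.09, edgeR adjusted p = 0.000122). The other 6 were not called. LCN2, LTF and ITGAX are also products of neutrophils or macrophages. Of 12 markers of those cells, 2 were detected in every sample (CD68 and CSF1R), and the defining neutrophil genes CSF3R, ELANE, MPO, CTSG, PRTN3 and FCGR3B were at 0 in every sample. The summed level of the 12 was 62.7 to 71.8 CPM in shCtrl and 17.8 to 27.6 CPM in shAC007128.1, most of it CD68, a lysosomal protein that many cell types express. CD68 itself fell from 63.8 ± 4.47 to 17.5 ± 5.27 CPM (SD, n = 3; log2 fold change -1.87, edgeR adjusted p = 0.000458), and its part in the other results was not tested. Of 8 fibroblast markers, 4 were detected in every sample, and their sum was 15.3 to 16.2 CPM in shCtrl and 20.9 to 23.9 CPM in shAC007128.1, most of it COL1A1 (13.9 ± 0.885 and 17.5 ± 0.983 CPM, SD, n = 3, not called). LUM rose (log2 fold change 2.14, edgeR adjusted p = 0.00193) and PDGFRB fell (-1.6, adjusted p = 0.0474).

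The genes whose log2 CPM followed that of LCN2 most closely over the 6 samples, among 12435 genes compared, were HSPA5 (Pearson r = 0.9998), UAP1 (0.9996), SARS1 (0.9995), NIT1 (0.9995) and DDOST (0.9994). The groups stood apart for LCN2, so r over 6 samples carries mostly the difference between groups and is given with no p. Genes picked by r were thus picked largely on that difference, and their values are a description, also with no p. HSPA5, which encodes the endoplasmic reticulum chaperone BiP, fell from 8930 ± 147 to 891 ± 40.9 CPM (SD, n = 3; log2 fold change -3.33, SE 0.05). SARS1, a seryl-tRNA synthetase, fell from 439 ± 8.04 to 194 ± 2.72 CPM (SD, n = 3; log2 fold change -1.18, SE 0.06). Among the genes described above, r with LCN2 was 0.995 for SLPI, 0.946 for SAA2, 0.886 for SAA1, 0.848 for IL17RA, 0.456 for NFKBIZ, 0.058 for TNIP1 and -0.86 for C3. Many other genes had a higher r, since among the 12435 compared SLPI ranked 174, SAA2 1462, SAA1 2272 and IL17RA 2628.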

How the data were processed

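RNA sequencing of KYSE150 cells was re-analysed for 3 shCtrl and 3 shAC007128.1 samples, grouped by the titles in their labels. Per the study's methods, poly-A RNA was made into TruSeq paired-end libraries, read on a NovaSeq instrument, mapped to hg38 with TopHat v2.0.9 (the submitters' processing notes name TopHat2 2.0.6 and CASAVA 1.8) and turned into FPKM with Cufflinks v2.1.1. The values the authors deposited and used here are estimated counts per Ensembl gene, whole numbers without normalization. The counting program, annotation release and use of strand are not given in the sources used here. Multiples of 4 were frequent among low counts (761 genes with 3 counts, 1355 with 4 and 993 with 5 in shCtrl replicate 1). For all 6 samples alike, the labels' growth field describes shCtrl and the treatment field shAC007128.1, so the groups rest on the titles alone. There were 0 unmapped columns.

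GENCODE v44 held 60357 of the 67140 identifiers (89.9%). Genes were filtered with filterByExpr (47886 identifiers removed), scaled by TMM (factors 0.9668 to 1.042) and tested with glmQLFit and glmQLFTest of edgeR 4.0.16 in R 4.3.3, with Benjamini-Hochberg adjustment over all 19254 genes. SE is the log2 fold change over the root of F. The limit for a count of 0 was 3 counts, for counting error only. The steps were tested on simulated data. Alternatives were DESeq2 1.42.0, limma-voom (limma 3.58.1), other scalings and filters, the replicate number as a block, single samples left out, no limit on fold change and counts divided by 4. Summed counts of overlapping genes or paralogs were added after seeing the data.

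The genes and the 8 lists were chosen with earlier results of these data known. Named genes are the 10, the target, a fixed set of partners (such as CFD and TNFAIP3), up to 4 called genes per list and direction by smallest p, and the 5 genes most like LCN2. Any other is said to have been named after its values were seen, apart from those of the marker lists. S100A15 and SOD2 had no match in the table by symbol. Some genes of the lists count in the totals but are not reported here.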

Additional observations from a re-analysis of the deposited data

How the results depend on the processing

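Over 14 alternatives, as a description since the genes were chosen on these counts, the log2 fold change was -3.21 to -3.1 for LCN2, -1.95 to -1.77 for SLPI, -2.02 to -1.37 for SAA1, -1.64 to -1.31 for SAA2 and -1.85 to -1.59 for CFB. It was 0.15 to 0.26 for C3, -0.55 to -0.12 for NFKBIZ and -0.28 to -0.17 for IL17RA. TNIP1 changed sign, from -0.13 without shAC007128.1 replicate 1 to 0.2 without replicate 3. With library size as the only scaling LCN2 moved to a log2 fold change of -3.21, and with counts summed over CFB, C2 and their read-through gene CFB moved to -1.18. With no limit on fold change, 4041 genes were called higher and 3820 lower, and 40 and 45 of the 168 genes of the lists, since that rule drops the limit of 1. In the other alternatives, counts over all genes and over the lists stayed within 1.5 times. Leaving out single samples gave 970 to 1068 genes higher and 1586 to 2023 lower, and 9 to 12 and 24 to 29 over the lists. Same-numbered samples shared only a number (correlations of their deviations 0.031, -0.025 and -0.03). With the replicate block, 977 genes were called higher and 1692 lower, and 8 and 27 over the lists. The block ended the calls of MASP2 (edgeR adjusted p = 0.0919) and WFDC3 (0.0652). MASP2 also lost its call in edgeR with library size only (adjusted p = 0.0536) and with no filter on low counts (0.0845). SERPINB3 lost its call in edgeR with no filter on low counts (adjusted p = 0.0567), and TRAF3 in limma-voom (adjusted p = 0.0509). CFI turned to -0.20 in limma-voom, -0.11 with the block, -0.00 without shAC007128.1 replicate 2 and -0.27 without replicate 3 (-0.27 to 0.64 over single samples left out). IL17RC turned to -0.01 with library size only and -0.02 without shAC007128.1 replicate 2 (-0.02 to 0.17), and NFKB1 to 0.02 without replicate 3 (-0.14 to 0.02). None of these 3 was called, and the cause was not tested. The C4B call was lost without any single shCtrl sample or shAC007128.1 replicate 3. Depth limits PI3, SLC22A17, WFDC2 and IL17C, and groups of 3 limit every SD.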

Other observations

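Genes near the 10 genes were read as well, within 100 kb on either side. Of 100 such neighbours, 44 were tested, with 14 called lower (31.8%) and 2 higher (4.55%), beside 10.1% and 5.57% of all genes tested. Some of these neighbours overlap each other or 1 of the 10 genes. Of those called lower, C2, C4A, C4B, TNXB, ZBTB12 and the pseudogene TNXA all lie in the same cluster around CFB. C2, C4A and C4B were also counted in the complement list, and most reads cannot tell C4A from C4B. The genes named here, apart from C2, C4A and C4B, were chosen after their values were seen. Beside LCN2, BBLN fell (log2 fold change -1.04, SE 0.17, edgeR adjusted p = 0.00238), while SLC25A25, a mitochondrial carrier, rose (1.11, SE 0.16, edgeR adjusted p = 0.00146) and its antisense gene SLC25A25-AS1 fell (-1.74, SE 0.15, edgeR adjusted p = 0.000179). The last pair overlap on opposite strands, and whether strand was used in counting is not given in the sources used here. Next to SAA1, HPS5, of a lysosome-related organelle complex, fell from 70.9 ± 2.76 to 34.7 ± 3.97 CPM (SD, n = 3; log2 fold change -1.03, SE 0.10, edgeR adjusted p = 0.000306). Beside C3, which was not called, GPR108 fell from 64.9 ± 3.77 to 24.8 ± 2.5 CPM (SD, n = 3; log2 fold change -1.39, SE 0.10, edgeR adjusted p = 9.8e-05). Its span overlaps that of C3. VAV1, a guanine nucleotide exchange factor known from blood cells, fell from 8.67 ± 0.327 to 3.47 ± 0.0966 CPM (SD, n = 3; log2 fold change -1.32, SE 0.14, edgeR adjusted p = 0.000346). In the complement gene cluster around CFB, TNXB, which encodes tenascin-X, fell from 5.92 ± 1.07 to 0.586 ± 0.0807 CPM (SD, n = 3; log2 fold change -3.33, SE 0.23, edgeR adjusted p = 7.15e-05). TNXB shares exon bases with other genes, CYP21A2 on the opposite strand among them. The pseudogene TNXA fell too (log2 fold change -3.38, SE 0.86, edgeR adjusted p = 0.0172).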
